A study of Mus musculus with 4 samples.

Results

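The genes described here are 10 genes known from mast cells and basophils, the tissue and blood leukocytes that carry IgE on their surface and store histamine and proteases in granules. They were chosen by name from a table of 53291 features and fall into the IgE receptor chains (Fcer1a, Ms4a2, Fcer1g), the granule proteases (Cpa3, Cma1, Tpsb2, Mcpt8), the enzyme and the proteoglycan of granule storage (Hdc, Srgn), and the growth factor receptor gene Kit. The samples are labelled as female germline stem cells of C57BL/6 mice at a passage above 20, kept for 4 h with spermidine or as control, with 2 libraries in each group and no dose given in the sources used here. Both groups share that labelled cell type, strain and passage, no allele or other agent is named, and nothing in the labels ties a library to a culture of its own. The p-values below thus reflect the spread between these libraries alone, and that spread may be technical.

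Mast cells and basophils bind IgE through a receptor of an alpha chain that holds IgE (Fcer1a), a beta chain that amplifies the signal (Ms4a2) and gamma chains that carry it into the cell (Fcer1g). Cross-linking of the receptor activates the kinases Lyn and Syk, adaptors and phospholipase C, and the granules are released within minutes. Survival and maturation of mast cells depend on KIT, the receptor of stem cell factor, and on GATA2 and MITF, transcription factors that act on many of these genes. KIT also acts in germ cells, where primordial germ cells and growing oocytes use it. Those are other cells than the labelled stem cells, in which a role of KIT was not tested.

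Depth differed between the groups, with totals of 7206176 and 7128901 counts for control and 787600 and 1718944 for spermidine. A floor of 3 counts thus corresponded to 0.435 and 0.434 CPM (scaled counts per 1e6) for control, but to 3.43 and 2.14 CPM for spermidine. The single row AY036118 held between 1.64% and 1.68% of the counts under control conditions and between 29.6% and 30.7% after spermidine. Olfactory and vomeronasal receptor genes, used as a gauge of reads outside expressed genes, had 3.18 counts per kb in spermidine replicate 1 and 0.0634 to 0.176 in the other libraries. Spermidine replicate 1 stands apart in that respect. Calls named below are given with and without it, some of them only as a count over their list. The call of Vim is given with it alone. The markers of the labelled cell type were low in the controls, at a sum of 23.6 and 29.9 CPM over 16 genes, and stood at 157 and 342 CPM with spermidine. General leukocyte markers summed to 2752 to 2848 CPM in the same controls. Ddx4, the germ cell helicase, had counts of 0, 0, 1 and 0 (controls, then spermidine) on 434 countable bases of 3822. Dazl, a germ cell RNA-binding protein gene, had 0, 1, 2 and 0 on 432 of 3396. Ifitm3, a surface protein gene of early germ cells and many other cells, had 49, 132, 72 and 146, and Dppa3, a germ cell and oocyte gene, 2, 3, 9 and 263. Whether the libraries hold the labelled cells was not tested. Each comparison below is between libraries labelled control and spermidine, and treatment and a difference in cell source between them cannot be told apart.

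Which of the 10 genes could be seen at all depended on how their transcripts overlap. Reads that touched several transcript rows were left out of the deposited counts, so a gene is countable only on bases that belong to a single one of its rows. Fcer1g and Cma1 had 1 row each and were countable over all their 658 and 1090 exon bases. Cpa3 was countable over 377 of 1481 bases, of which 349 belonged to its curated row. Those 349 bases are a stretch of 264 at the 3′ end (chr3:20215616-20215879, GRCm38) and an internal exon of 85 bases, and 157 of them are coding and 188 untranslated.

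**Figure D1:**
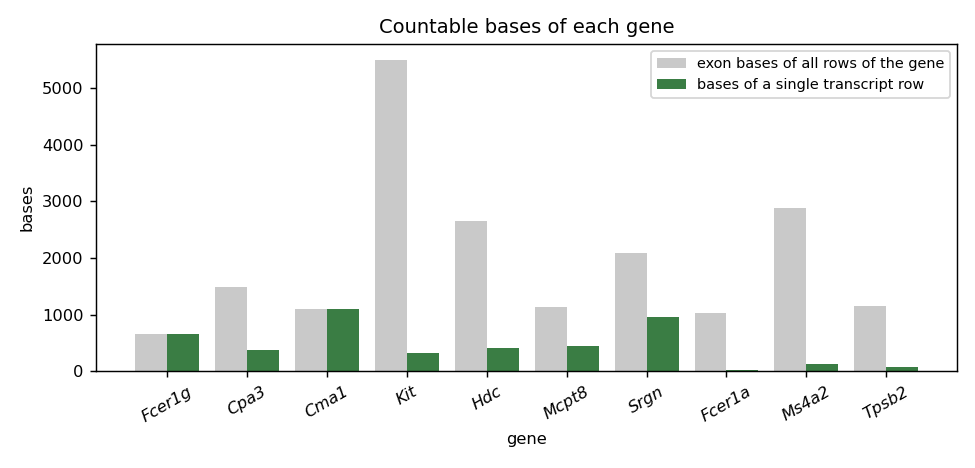
For each gene, the grey bar gives the exon bases of all its deposited transcript rows and the green bar the bases that belong to a single row, in bases on a linear axis. Fcer1g and Cma1 have equal bars, while Fcer1a, Tpsb2 and Ms4a2 have 26, 67 and 131 countable bases.

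The other 7 genes were countable on at most 965 bases, in part outside annotated exons. Fcer1a had 26 countable bases of 1031, Ms4a2 131 of 2890 and Tpsb2 67 of 1155, and the curated rows of Ms4a2, Kit, Srgn and Tpsb2 had at most 57, 4, 0 and 0. All 23 counts of Kit lay on a predicted row whose 323 countable bases (chr5:75575743-75576065) are intron in the GENCODE basic annotation. The 20 counts of Srgn likewise lay on a predicted row with 774 countable bases (chr10:62507913-62508686), of which 748 are intron. Hdc was countable in its first exon (161 bases, chr2:126618518-126618678), which held all its counts, and on 250 bases of a predicted row outside the annotated gene. Mcpt8 was countable in an internal coding exon of 148 bases (chr14:56083803-56083950) and on 302 bases of a predicted row, of which 76 are intron and 226 lie outside the gene. That row held 2 and 1 of the control counts of Mcpt8 and its 1 spermidine count. Counts of Kit, Srgn and Tpsb2 are thus not counts of their curated messenger RNAs, and a gene without counts is not shown to be silent.

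The promoters of the 3 genes that could be tested are printed from RefSeq (GRCm38.p6), each with 250 bases before and 50 after the start of transcription, 5′ to 3′ on the gene's own strand. They are the start regions of the called genes Cpa3 and Fcer1g and of Cma1, which was not called. A link between these sequences and the levels was not tested. All 3 genes lie on the minus strand, at chr3:20242132-20242431 for Cpa3, chr1:171234300-171234599 for Fcer1g and chr14:55944626-55944925 for Cma1. Capitals mark matches, on either strand, to the GATA motifs AGATAA and TGATAA, the MITF E-box CATGTG and the ETS motif AGGAAG.
Cpa3: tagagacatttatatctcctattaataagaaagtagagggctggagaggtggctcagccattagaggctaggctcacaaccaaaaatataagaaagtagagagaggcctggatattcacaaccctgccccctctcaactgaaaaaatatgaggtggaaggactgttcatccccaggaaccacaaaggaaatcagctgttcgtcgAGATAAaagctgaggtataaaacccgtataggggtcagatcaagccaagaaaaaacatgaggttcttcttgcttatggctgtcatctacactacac
Fcer1g: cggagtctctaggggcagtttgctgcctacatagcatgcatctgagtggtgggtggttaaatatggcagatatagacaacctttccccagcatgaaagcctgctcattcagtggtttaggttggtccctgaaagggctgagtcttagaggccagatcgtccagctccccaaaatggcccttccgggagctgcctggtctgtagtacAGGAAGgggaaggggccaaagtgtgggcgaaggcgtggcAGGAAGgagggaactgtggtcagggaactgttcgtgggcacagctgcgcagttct
Cma1: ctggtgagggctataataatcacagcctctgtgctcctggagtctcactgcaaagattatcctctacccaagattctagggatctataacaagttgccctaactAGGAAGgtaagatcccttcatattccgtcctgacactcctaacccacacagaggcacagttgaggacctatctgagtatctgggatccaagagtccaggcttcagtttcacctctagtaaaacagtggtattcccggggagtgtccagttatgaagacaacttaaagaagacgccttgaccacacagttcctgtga
Cpa3 held 1 AGATAA match, starting at position -46 from the start site, and no match to the other 3 motifs. Fcer1g held 2 AGGAAG matches, at -44 and -5, and Cma1 held 1, at -146. In none of these 3 promoters did matches overlap. Of 32851 promoters of this length, 11.2% held AGATAA, 9.05% TGATAA, 14.2% CATGTG and 35.4% AGGAAG, so each of these matches is common.
RefSeq promoters were found for 9 of the 10 genes. Ms4a2 held 3 AGATAA matches at -224, -37 and -11, and Fcer1a held 1 at -92 with 1 CATGTG match at -208, but neither gene had a count in any library.

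In the control libraries the gamma chain gene and the carboxypeptidase gene were abundant, and both were lower in the spermidine libraries. Counts of Fcer1g were 1799 and 1186 for control, against 35 and 23 for spermidine. That is 261 and 172 CPM against 40.0 and 16.4, so both spermidine libraries lay below both controls. The control mean was 216 CPM ± 63.0 (SD, n = 2) and the spermidine mean 28.2 ± 16.7 (SD, n = 2). The fitted log2 fold change was -2.995 ± 0.66 SE, a level 7.97-fold lower, with an adjusted p of 0.00965 by edgeR's quasi-likelihood test (Benjamini-Hochberg over 7836 tested genes).

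Cpa3, which encodes the carboxypeptidase of mast cell granules, had 924 and 549 control counts and 10 and 7 spermidine counts. These are 134 and 79.4 CPM against 11.4 and 4.98, with no overlap between the groups. The means were 107 CPM ± 38.5 (SD, n = 2) and 8.21 ± 4.56 (SD, n = 2). Cpa3 fell by 3.79 on the log2 scale (± 0.76 SE, edgeR adjusted p = 0.00764), or 13.8-fold. In a bulk sample, fewer cells of a type and less RNA per cell cannot be told apart.

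Per kb of countable bases, Fcer1g stood at 396 and 261 CPM per kb in the controls and Cpa3 at 355 and 211, so their ranges overlapped. Cpa3 was countable on 377 of 1481 bases, and reads reaching from these into bases of both its rows were left out. Its values per kb and its ranks may thus be too low. Among 14148 protein-coding genes with at least 300 countable bases, Fcer1g stood above 98.1% and 97% under control conditions and above 94.3% and 83.1% after spermidine. Cpa3 stood above 97.9% and 96.4% of them, and after spermidine above 87.4% and 78%. The spermidine counts were also above the reads on receptor genes: at the receptor rate, Fcer1g would have had 2.1 counts in spermidine replicate 1 where it had 35, and Cpa3 1.2 where it had 10. Of 1286 receptor genes, 0% reached the Fcer1g level per kb in that library and 0.311% the Cpa3 level. Both transcripts were thus detected in the spermidine libraries at a lower level. The count ratio of Fcer1g to Cpa3 was 1.95 and 2.16 for control, against 3.5 and 3.29 for spermidine, and the difference between the groups was not tested.

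**Figure D2:**
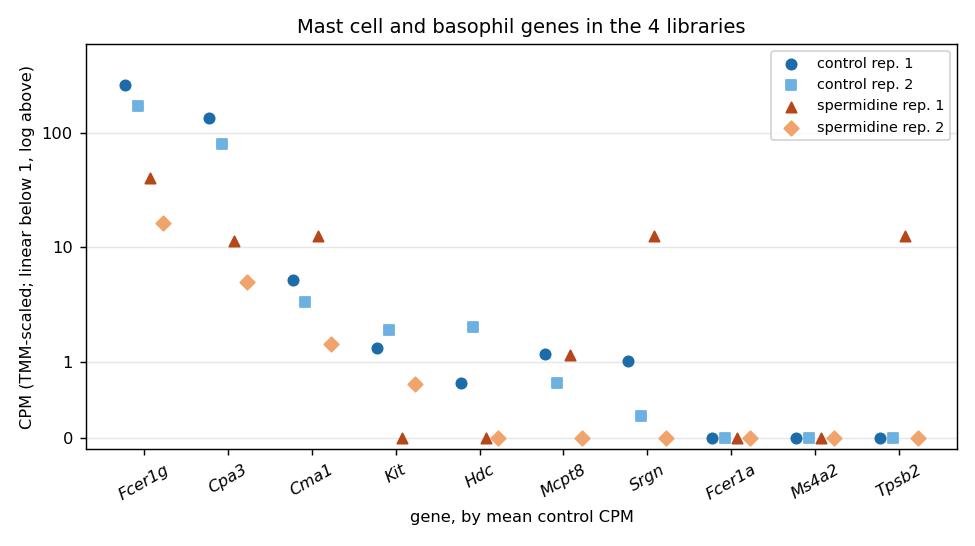
Each point is the TMM-scaled CPM of a gene in a single library, on an axis that is linear below 1 and logarithmic above, with genes ordered by their mean control CPM. Fcer1g and Cpa3 have both controls above both spermidine libraries, while the points of Cma1, Srgn and Tpsb2 in spermidine replicate 1 each stand at 12.6 CPM.

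Cma1 encodes the mouse chymase mMCP-5 of connective tissue mast cells. It had 36 and 23 control counts and 11 and 2 spermidine counts, or 5.22 and 3.33 CPM against 12.6 and 1.42. The spermidine libraries lay on either side of the controls, and the log2 fold change was 0.49 ± 1.05 SE (edgeR adjusted p = 0.758). Leaving out spermidine replicate 1 turned it to -1.57 ± 0.90, and leaving out spermidine replicate 2 gave 1.60 ± 0.89, with no call in either fit. In spermidine replicate 1, 5.75% of receptor genes reached the Cma1 level of 10.1 counts per kb, against 0% in control replicate 1, where Cma1 had 33 counts per kb.

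Among the 10 genes, then, 3 passed the low-count filter, 2 were called lower and 0 higher. Over all 7836 tested genes, 28.8% were called in either direction, 3.99% lower and 24.8% higher. Of the 3, 2 had both spermidine libraries below both controls, as did 29.6% of all tested genes, and 0 had both above both controls, as did 36.6%. The filter asked for 2.26 CPM in at least 2 libraries. Cpa3 and Fcer1g met it in 4 libraries and Cma1 in 3, so neither of the called genes was kept through the controls alone. With groups of 2, an exact permutation test of a single gene cannot go below p = 0.333 (two-sided), so the calls rest on the spread shared across genes.

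The calls of both genes depended on the libraries used. Cpa3 stayed called without control replicate 2 (log2 fold change -4.09, edgeR adjusted p = 0.0305) and without spermidine replicate 2 (-3.17, 0.00227), the single library left being taken to vary as the pair does. It was not called without control replicate 1 (-3.26, edgeR adjusted p = 0.127) or without spermidine replicate 1 (-4.41, adjusted p = 0.0762). Fcer1g followed the same order, with -3.24 (edgeR adjusted p = 0.0403) and -2.39 (0.0034) in the fits that kept its call, and -2.55 (0.149) and -3.72 (0.069) in those that lost it. Thinned to equal depth without AY036118, Cpa3 had -2.63 (edgeR adjusted p = 0.0527) and Fcer1g -2.14 (0.0979), and neither was called. With all libraries and under the 17 alternatives run for each, every value of both genes was below 0; Cpa3 was called in 13 of these alternatives and Fcer1g in 12.

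**Figure D3:**
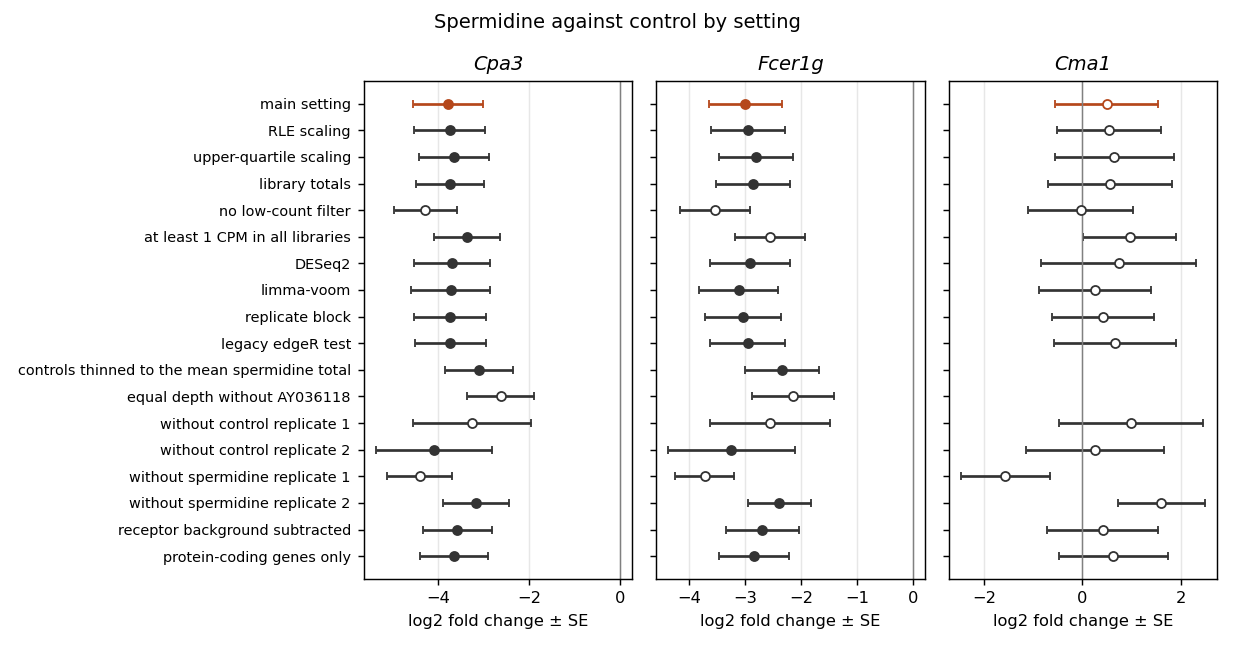
Points are log2 fold changes of Cpa3, Fcer1g and Cma1 (spermidine over control) with bars of 1 SE, a row for each setting; filled points have an adjusted p under 0.05. The points of Cpa3 and Fcer1g lie left of 0 in all settings shown, from -4.41 to -2.14 among all settings, while those of Cma1 lie on both sides, and Cma1 was too low to be tested in the thinned settings.

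The remaining genes had too few counts for a test. Hdc, which makes histamine from histidine, had 5 and 14 control counts and 0 and 0 spermidine counts. The control level was 1.05 times that of a floor of 3 counts over the spermidine group, and the 95% counting interval of the ratio began at 0.770, so the depth there could not show a change. Mcpt8, a basophil protease, had 8 and 5 control counts against 1 and 0, a ratio of control to spermidine of 2.15 with a 95% counting interval of 0.322 to 91.2, in part on the predicted row. Kit had 9 and 13 control counts against 0 and 1 on its intronic stretch (ratio 3.63, 0.587 to 149.8). Both controls held counts of these 3 genes, those of Kit on intronic bases alone. Their difference between groups was not detectable at this depth.

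Srgn, the core protein that binds proteases and histamine in granules, had 7 and 2 control counts and 11 and 0 spermidine counts. Tpsb2, the tryptase mMCP-6, had 0 and 0 control counts and 11 and 0 spermidine counts, and the latter were on 67 bases. For both, the counts of spermidine replicate 1 had no counterpart in spermidine replicate 2. In that library 4.74% of receptor genes reached the Srgn level per kb. For Tpsb2 the share was 0%, but the receptor genes compared had at least 300 countable bases. A level per kb from 67 bases is not a like measure, so this share does not set Tpsb2 apart from the background. Fcer1a and Ms4a2, the alpha and beta chains, had 0 counts in all 4 libraries. Summed over the 10 genes, the libraries held 2788 and 1792 control counts and 79 and 33 spermidine counts. Fcer1g and Cpa3 made up 97.7% and 96.8% of these in the controls, 57% in spermidine replicate 1 and 90.9% in spermidine replicate 2.

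Several of the proteases lie together in the mouse genome. The chymase cluster on chromosome 14 (chr14:55941451-56262334) holds Cma1, Mcpt1, Mcpt9, Mcpt2, Mcpt4, Mcpt8, the cathepsin G gene Ctsg and the granzyme B gene Gzmb. Ctsg led it with 2976 and 3394 control counts against 105 and 32, and it fell by 2.74 on the log2 scale (± 0.76 SE, edgeR adjusted p = 0.0252). It kept its call without spermidine replicate 1 or 2, and not without control replicate 1 (edgeR adjusted p = 0.117) or control replicate 2 (0.0942). Gzmb had 62 and 221 control counts against 22 and 39 (log2 fold change 0.38 ± 0.80 SE) and was not called. The mucosal and connective tissue proteases Mcpt1 and Mcpt4 had 0 control counts, and both had 11 and 0 spermidine counts. Countable bases were 998 for Ctsg, 990 for Mcpt4, 1028 for Mcpt1, 618 for Mcpt2 and 450 for Mcpt8. In the tryptase cluster on chromosome 17, Tpsab1, with all its 1093 bases countable, had 5 and 16 control counts against 4 and 0.

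Other genes known from mast cells, basophils or both, beyond the 10, were mixed. Of 36 such genes, 15 were tested, 3 were lower and 2 higher, with a median log2 fold change of 0.38 against 0.23 for all tested genes, of which 3.99% were called lower and 24.8% higher. Those shares are the background for each list below as well. Gata2, the transcription factor of mast cell and basophil precursors, had 1437 and 1000 control counts against 32 and 21, on 218 countable bases of 3243. It fell by 2.84 (± 0.66 SE, edgeR adjusted p = 0.0119). Il13, a cytokine of activated mast cells, basophils and type 2 lymphocytes, had 742 and 421 against 14 and 7 and fell by 3.12 (± 0.79, adjusted p = 0.0172). Csf2rb2, the mouse beta chain of the interleukin 3 receptor, had 471 and 353 against 11 and 5, on 327 countable bases of 4740. It fell by 3.02 (± 0.82, edgeR adjusted p = 0.0223). In CPM, both spermidine libraries lay below both controls for each of these 3 called genes. That held for 6 of the 15 tested in the list, against 29.6% of all tested genes. For 3 of the 15 they lay above both controls, against 36.6% of all tested genes. Of the 4 fits that leave out a library, 1 kept the calls of these 3 genes, the fit without spermidine replicate 2. All 3 calls were also lost with the controls thinned and at equal depth.

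Other genes of that list had clear control counts without a call. Il4, the related cytokine, had 95 and 61 control counts against 1 and 0 (log2 fold change -4.58 ± 1.59 SE, edgeR adjusted p = 0.0614). Tph1, which makes serotonin in mouse mast cells, had 287 and 283 against 11 and 0 (-2.996 ± 1.08, adjusted p = 0.0688). Hpgds, which makes prostaglandin D2, had 180 and 188 against 14 and 8 (-1.40 ± 0.81). Slc18a2, the transporter that loads histamine and serotonin into granules, had 1396 and 1279 against 66 and 611, with a log2 fold change of 0.41 ± 0.73. For Slc18a2 the groups overlapped, and spermidine replicate 2 held the highest CPM of the 4. The genes called higher were Itga2, an integrin chain of platelets, mast cells and epithelia (1 and 3 control counts against 36 and 43, log2 fold change 6.79 ± 0.97, adjusted p = 0.00356), and the coactivator gene Cited4 (0 and 2 against 80 and 23, 8.20 ± 1.37, adjusted p = 0.00523). Both met the filter through the spermidine libraries alone. Itga2 was not called without control replicate 1, nor was Cited4, which also lost its call without spermidine replicate 1. Mitf had 0 control counts and 16 and 0 spermidine counts, on 523 countable bases of 6322.

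Downstream of the IgE receptor, an adaptor and a phospholipase fell. Of 26 such genes, 7 were tested, 2 were lower and 0 higher, with a median log2 fold change of -2.09. Lcp2, the adaptor SLP-76, was the most abundant of them with 13868 and 12027 control counts against 339 and 160 (-2.92 ± 0.71, edgeR adjusted p = 0.0144). Plcg2, a phospholipase C of blood cells, had 2787 and 2623 against 114 and 80 (-2.09 ± 0.59, adjusted p = 0.0273). Its relative Plcg1, found in most cell types, had 2187 and 2450 against 148 and 295 (-0.82 ± 0.50, adjusted p = 0.254). Both spermidine libraries lay below both controls for 6 of the 7 tested, against 29.6% of all tested genes. Without control replicate 1 or control replicate 2, 0 of the 7 were called, and without spermidine replicate 1 it was Lcp2 alone. Over 17 alternatives Lcp2 was called in 11 and Plcg2 in 7; with library totals as the scaling Plcg2 was not called (edgeR adjusted p = 0.0598). The kinase genes could not be read: Lyn had no countable base and no counts, and Syk had 373 countable bases of 8089 with 2 and 0 control counts.

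Of 20 genes of the KIT ligand and its signalling, 12 were tested and 0 were called, with a median log2 fold change of -0.99. Those with the most counts over the 4 libraries were the exchange factor gene Sos1 (-1.33 ± 0.52 SE), the inhibitor gene Spred1 (-0.95 ± 0.52) and the PI3-kinase subunit gene Pik3r1 (-0.65 ± 0.57), with adjusted p of 0.0899, 0.212 and 0.434 by the edgeR test. Spred2, a relative of Spred1 named after its values were seen, had 213 and 236 control counts against 218 and 37 (2.05 ± 0.89, adjusted p = 0.12), and its spermidine libraries lay on either side of the controls. With spermidine replicate 2 left out, 2 of these genes were called higher. Kitl, the ligand itself, had no countable base. In the family of IgE and IgG receptors and their adaptors, 5 of 15 were tested and 0 called. Tyrobp, an adaptor with the same kind of signalling motif as Fcer1g, had 345 and 216 control counts against 20 and 7 (-1.68 ± 0.84, adjusted p = 0.172), and Fcgr1, an IgG receptor that pairs with the gamma chain, had 221 and 412 against 24 and 13 (-1.41 ± 0.77). Ms4a6b, a relative of the beta chain, had 6 and 103 against 14 and 13.

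Genes of granule storage and release were lower for 4 and higher for 1 of 11 tested (24 in the list, median -1.49), against 3.99% lower and 24.8% higher of all tested genes. Ctsc, which activates granule proteases by removing their dipeptide, had 8197 and 7765 control counts against 170 and 160 (-2.92 ± 0.58, edgeR adjusted p = 0.00755). Serpinb1a, an inhibitor of such proteases, had 1268 and 1380 against 22 and 26 (-3.16 ± 0.60, adjusted p = 0.00749), and Ctsg is given above. The member called higher was Ext1, which builds heparan sulfate chains in most tissues, with 56 and 150 control counts against 132 and 1177 (5.06 ± 0.95, adjusted p = 0.00749). Release genes had values without a call, among them Vamp8 (-0.87 ± 0.50) and Stxbp2, which had 52 and 42 control counts against 0 and 0. In the granule list, genes called lower numbered 0 without control replicate 1, 1 without control replicate 2, 2 without spermidine replicate 1 and 6 without spermidine replicate 2. Ext1 lost its call without control replicate 1 and without spermidine replicate 1.

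**Figure D4:**
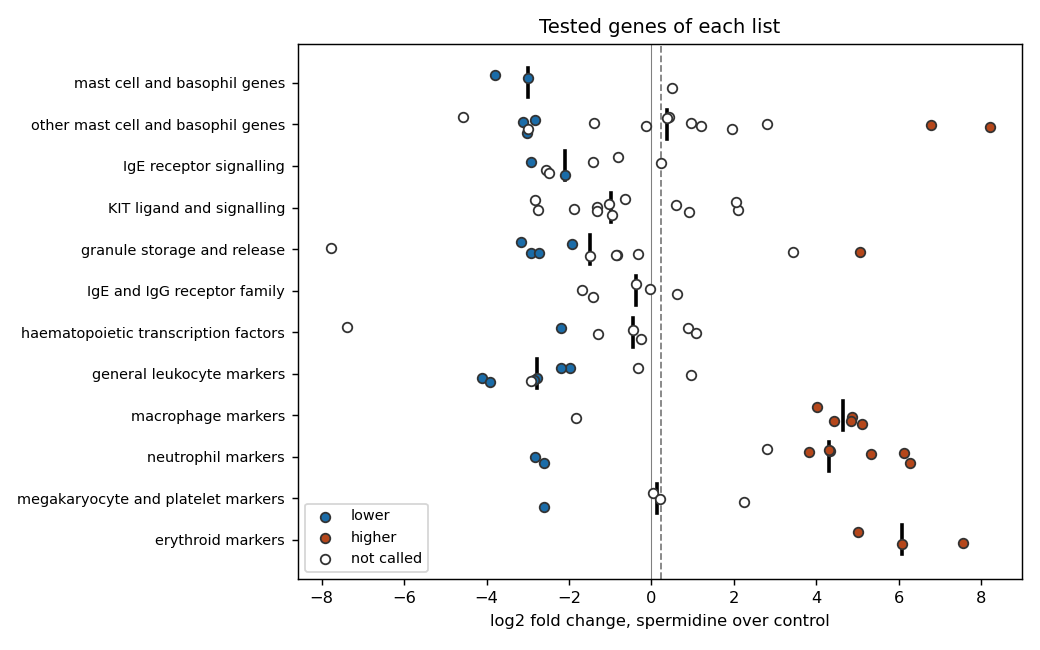
Each point is a tested gene, placed by its log2 fold change (spermidine over control) and coloured where its adjusted p was under 0.05. Black bars are list medians and the dashed line is the median of all tested genes, 0.23; the tested mast cell and basophil genes lie at -3.79, -2.995 and 0.49. In several other lists, genes called higher met the low-count filter through the spermidine libraries alone.

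By the distance between centred log2 CPM profiles over the 4 libraries, the 5 genes nearest to Fcer1g were Gata2 (0.166), Gm38708 (0.209), Eaf1 (0.219), Rps2 (0.237) and Il13 (0.287). Nearest to Cpa3 were Afp (0.287), Plek (0.367), Il4 (0.435), Nkain1 (0.438) and Timm8a1 (0.479). With 4 libraries in 2 groups such a profile holds little more than the group difference and the differences within each pair. Rps2, a ribosomal protein gene of all cells, was among them with 23012 and 16848 control counts against 484 and 270.

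Markers of other cells moved with these genes, and their part in the results was not tested. Of 15 general leukocyte markers, 9 were tested, 6 were lower and 0 higher (median -2.77), and their summed level was 2752 to 2848 CPM in the controls, against 262 to 679 with spermidine. Plek, a substrate of protein kinase C in platelets and leukocytes, fell by 3.91, Was, the Wiskott-Aldrich actin regulator, by 2.85 and Cd48, a surface protein, by 4.11 (edgeR adjusted p = 0.00608, 0.0144 and 0.0189). Cd48 had 376 and 399 control counts against 7 and 0. With fewer than 2 spermidine libraries at the filter's 2.26 CPM, it owed its place in the test to the controls, where it is high. Ptprc, which encodes CD45, had 196 countable bases and 0 and 0 control counts. Of 12 megakaryocyte and platelet markers, 4 were tested and 1 was lower, the integrin gene Itga2b (-2.61 ± 0.56, adjusted p = 0.00906), which early mast cells and basophils also carry. It had 5738 and 4658 control counts against 136 and 131. For Pf4 alone of the 4 tested, both spermidine libraries lay above both controls, and for Itga2b alone they lay below both. Over all tested genes the shares were 36.6% above and 29.6% below. Pf4 had 8 and 17 control counts against 12 and 7 (2.24 ± 0.95, edgeR adjusted p = 0.113) and was not called. The median of that list was 0.13. Of 23 blood transcription factor genes, 7 were tested and 1 was lower, Runx3 (-2.20 ± 0.64, adjusted p = 0.0309), which was called in 7 of 17 alternatives and not by limma-voom (adjusted p = 0.055). Gata1 had 17 and 16 control counts against 0 and 0 on 352 countable bases. The 6 leukocyte calls became 0 without control replicate 1, 1 without control replicate 2 and 3 without spermidine replicate 1. With spermidine replicate 2 left out the call of Runx3 was kept, and in the other 3 such fits it was not; for the megakaryocyte list, 1 gene was called lower in that fit and 0 in the other 3.

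Not all leukocyte genes were lower. Of 16 macrophage markers, 6 were tested, 5 were higher and 0 lower, among them Lyz2 with 81 and 49 control counts against 239 and 190 (4.43 ± 0.67, edgeR adjusted p = 0.00496), C1qa (5.10) and Mrc1 (4.86). Of these 5, 4 had fewer than 2 controls at the filter's 2.26 CPM and so entered the test through the spermidine libraries, where they are high. Cd68, the other tested macrophage marker, went the other way and was not called. It had 529 and 494 control counts against 28 and 17 (-1.82 ± 0.68, edgeR adjusted p = 0.0777). Of 14 neutrophil markers, 9 were tested, 6 were higher and 2 lower, with Ngp (6.26), Ltf (6.13) and Camp (4.32) higher and Cxcr2 (-2.60) and Mmp8 (-2.82) lower. All 6 higher genes entered through the spermidine libraries. Mmp8, with 330 and 208 control counts against 9 and 3, entered through the controls, where it is high. The 2 lower calls became 1 under each other scaling and with limma-voom, and 0 in 3 of the 4 fits that leave out a library, the fit without spermidine replicate 2 keeping 1. Erythroid markers were higher for 3 of 3 tested, Hba-a1 by 6.07, Hbb-bs by 4.999 and Slc4a1 by 7.55, the last with no control at the filter's CPM. Markers of eosinophils, granulocytes that arise close to basophils, held 1 and 4 control counts and 19 and 4 spermidine counts in all 9 genes together, Prg2 with 0, 0, 8 and 2, Ear1 with 0, 3, 2 and 0 and Il5ra with 0, 0, 5 and 0. Among T, B and NK cell markers 2 were tested and 0 called, and their summed level was 4.64 and 31.4 CPM in the controls, against 125 and 2.85 with spermidine. Cd3g accounted for 136 of the 217 counts in control replicate 2, and Cd79a for 80 of the 109 in spermidine replicate 1, while Cd28 had 20, 59, 4 and 0. Of 9 blood progenitor markers 2 were tested and 0 called, Slamf1 with 26, 27, 2 and 0 counts, Procr with 6, 25, 2 and 16, and Flt3 with 0, 0, 18 and 0. Without control replicate 1 none of the macrophage, neutrophil or erythroid genes was called, and with spermidine replicate 1 left out, 0, 2 and 1 of them were called higher.

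Gonadal markers stood higher in the spermidine libraries. Summed oocyte markers stood at 1.45 and 2.61 CPM in the controls and at 165 and 2197 with spermidine, and of 11 genes, 5 were tested and called higher, none with a control at the filter's CPM. The smallest p were those of the egg coat genes Zp1 (9.75) and Zp3 (9.52) and the growth factor gene Bmp15 (8.59). Granulosa and theca markers stood at 25.9 and 23.0 against 2064 and 6917 CPM (7 of 7 tested higher, 12 in the list), with the smallest p for the transcription factor genes Wt1 (9.23) and Foxl2 (9.18) and the steroid enzyme gene Cyp17a1 (9.93). Endothelial markers stood at 1.45 and 0.579 against 105 and 117 CPM (3 of 3 tested higher, 7 in the list; Tie1 7.16, Flt1 5.54 and Kdr 9.60), and fibroblast and stroma markers at 6349 and 6742 against 3664 and 11740 (5 higher and 1 lower of 9 tested, 11 in the list). Lum (7.91), Col3a1 (7.11) and Col1a2 (5.70) of the matrix rose, and the intermediate filament gene Vim fell by 2.05. Germline markers stood at 23.6 and 29.9 against 157 and 342 CPM, and 4 of 5 tested of 16 were higher, among them Dppa3, Mael and Sycp3. Etv5, the other tested germline marker, went the other way and was not called. It had 108 and 69 control counts against 6 and 6 (-1.26 ± 0.91, edgeR adjusted p = 0.331). Of the 24 genes called higher in these 5 lists, 18 lay under the filter's CPM in at least 1 control and so owed their place in the test to the spermidine libraries. The number called higher in those lists is therefore in part set by the filter. Without control replicate 1, 0 of the 24 were called. Without spermidine replicate 1, the oocyte and granulosa lists had 5 and 7 genes called higher, the fibroblast list 4, the germline list 2 and the endothelial list 1. Without control replicate 2, the germline list had 2.

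**Figure D5:**
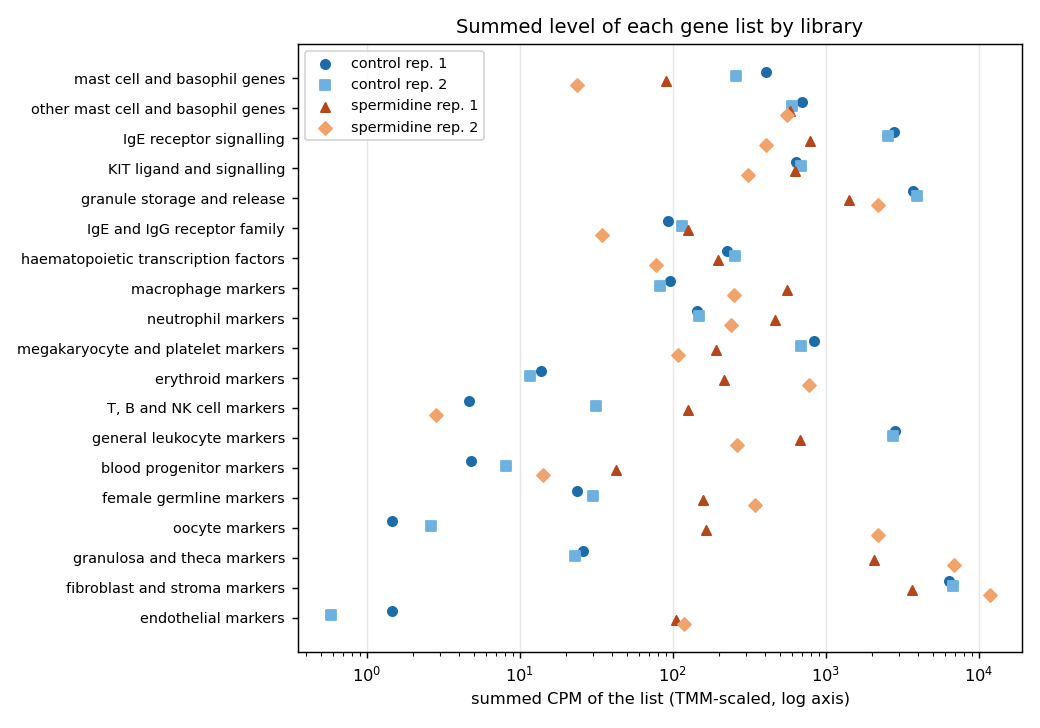
Points give the summed TMM-scaled CPM of each list in each library on a logarithmic axis. The mast cell and basophil genes stand at 404 and 259 CPM in the controls and at 90.3 and 23.5 with spermidine, and the oocyte, granulosa and endothelial lists lie in the opposite order.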

How the data were processed

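mRNA libraries of 2 control and 2 spermidine samples were compared. HISAT2, DESeq2 and the build mm9 are named, without roles, per the submitters' processing notes; what counted the reads is not stated there. Per the file headers, the authors deposited raw whole-number counts of 106519 RefSeq transcript rows. Of these, 80.8% matched a symbol in the RefSeq table of GRCm38, and 88.6% of those had exons within the GRCm38 bounds of the gene. Positions are therefore GRCm38. Rows were summed per gene (53291 features). Countable bases are those covered by a single row, strand ignored: the 49975 rows with none held at most 0.0014% of the counts of a library.

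Counts were filtered with filterByExpr (count minimum 10, total minimum 15), scaled by TMM (factors 0.961, 0.973, 1.3 and 0.824 for control 1 and 2 and spermidine 1 and 2) and tested with edgeR 4.0.16 (glmQLFit without the legacy setting, glmQLFTest) in R 4.3.3, with 2 residual degrees of freedom. Calls are genes whose adjusted p (Benjamini-Hochberg, over every gene tested) was under 0.05. CPM are per TMM-scaled total of the tested genes, and profiles use log2 CPM with a prior count of 2. The test was also run on simulated data, with changes planted in well-counted genes only. That run does not cover genes with few counts, and its outcome is not given here. Replicates differed beyond sampling noise (chi-square per degree of freedom of 46.6 within control, 28.5 within spermidine), so none was counted as a duplicate. Intervals and floors cover counting error only, since reads without molecular identifiers are not independent molecules.

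The genes, the lists and the tests were chosen with earlier results of these data known. Named genes are the 10 genes, up to 3 called genes in each direction with the smallest p of each list (the 3 most abundant where none was called), 8 fixed genes, and the 5 genes nearest to Fcer1g and to Cpa3. Tph1, Hpgds, Slc18a2, Plcg1, Spred2, Vamp8, Stxbp2 and the genes of the protease clusters fall outside the rule and were named once their values were seen. The same holds for Dazl, Ifitm3, Etv5, Cd68 and Pf4. The alternatives changed the scaling, the filter, the tool (DESeq2 1.42.0, limma-voom in limma 3.58.1), a replicate block, the depth and which library was left out.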

Additional observations from a re-analysis of the deposited data

How the results depend on the processing

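Over all genes, the count of calls (2256) fell to 0 in edgeR when low genes were kept, where 4255 had an unadjusted p under 0.05. Requiring 1 CPM in every library gave 275, thinning the controls to 1253272 counts 1065, and equal depth (554572 counts, AY036118 removed) 784. Subtracting the receptor background, an alternative chosen after seeing the data, gave 1492. DESeq2 gave 2194 and limma-voom 1954. Leaving out a library gave 0 to 3725: 0 by edgeR without control replicate 1, with 1926 at unadjusted p under 0.05, then 484 without spermidine replicate 1 and 3725 without spermidine replicate 2. Of the 2 mast cell and basophil genes called, 0 remained called with no filter, 1 with 1 CPM in all libraries (Cpa3) and 0 at equal depth, and 0 to 2 when a library was left out. The log2 fold change of Cma1 turned to -0.039 with no filter, and ranged from -1.57 (without spermidine replicate 1) to 1.60 when a library was left out. The cause was not tested. With the replicate number as a block, 1775 genes and 2 of the mast cell and basophil genes were called, Cpa3 at -3.75 and Fcer1g at -3.03 (both edgeR adjusted p = 0.0207). The block ended the calls of Plcg2 (adjusted p = 0.0595 by edgeR), Runx3 (0.095) and both lower neutrophil genes. The numbers are not shown to pair the samples: the deviations of same-numbered libraries correlated at -0.0299 across genes. Under the 3 other scalings, DESeq2 and limma-voom both genes kept their call, as they did under the legacy edgeR test and with protein-coding genes alone, which were also chosen after seeing the data. The median of all tested genes moved from 0.23 with TMM to 0.37 with upper-quartile scaling. At the spermidine depth, genes with few control counts could not be compared.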
